A study of Drosophila melanogaster with 12 samples.

Results

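The genes described here encode the Dpp branch of bone morphogenetic protein (BMP) signalling in the Drosophila ovary. The list held 9 genes: the ligands dpp and gbb, the receptors tkv, sax and put, the signal transducers Mad and Med, the feedback inhibitor Dad and the repressor brk. Members were all probe sets that the platform annotation gives to 1 of these symbols alone, which yielded 9 probe sets for 8 genes out of 10843 genes with a probe set of their own and 14010 probe sets on the array. The gene tkv had 2 probe sets and the other 7 genes had 1 each. No probe set was given to brk alone, and brk was not analysed here.

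RNA of purified ovarian cells was hybridised to 12 arrays in 4 groups of 3 arrays, which the series describes as biological repeats. Wild-type females were slbo-Gal4, UAS-mCD8-GFP/+, and mutant females were slbo-Gal4, slboe7b/UAS-mCD8-GFP, slboLy6. All groups therefore carried the driver and the tagged membrane protein, and the mutant carried a pair of slbo alleles besides. Cells labelled migratory were those that carried the CD8 tag and bound beads coated with an antibody to mouse CD8, and cells labelled nonmigratory were those without the tag. Which cells carried the tag therefore rested on where the slbo driver is active. The purity of the fractions was not tested. The gene slbo itself, which encodes the C/EBP transcription factor needed for border cell migration, is also the mutated gene. Labels gave an age of 2 to 7 days for 11 of the 12 arrays, and the mutant nonmigratory arrays included 1 with no age and 1 whose genotype is given by its title and source and not by a genotype label.

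Dpp is a secreted BMP ligand that signals alone or together with the related ligand Gbb. Ligands bind type I receptors, Tkv and Sax, which act with the type II receptor Put. The active receptor phosphorylates Mad, which enters the nucleus with the common Smad Med, represses brk and activates targets such as Dad. Brk is a repressor of Dpp targets, and Dad is an inhibitory Smad that limits the signal. In the ovary dpp is known to be transcribed in anterior follicle cells, the stretched and centripetal cells that lie near the migrating border cells, and Dpp signalling patterns the anterior eggshell.

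Signals were MAS5 intensities scaled to a like trimmed mean on every array. A signal of about 39.2 was taken as background, the mean over arrays of the 95th percentile of 23 control probe sets for bacterial, mouse and yeast transcripts, and this percentile lay between 24.9 and 50.9 on single arrays. Differences are given on the log2(signal + 7.50) scale, where the added constant understates changes of dim genes, and were tested with limma over 9753 probe sets that passed a filter on low signal. All 9 probe sets of the pathway passed that filter. A probe set was called where the Benjamini-Hochberg adjusted p was under 0.05. The 4 comparisons of 2 groups share arrays, so that an array that is high in wild-type migratory cells enters both the comparison of fractions and that of genotypes.

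In wild-type ovaries dpp and the common Smad gene Med were higher in migratory than in nonmigratory cells. The other 7 probe sets of the pathway were not called, where 8.42% of all probe sets were. In the mutant 0 of 9 probe sets were called between the fractions, where 8.29% of all probe sets were. Between genotypes 0 of 9 were called in migratory cells and 0 of 9 in nonmigratory cells, where 1.81% and 0.656% of all probe sets were. At such shares a lack of calls among 9 probe sets is not unusual.

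The ligand gene dpp had signals of 125.5, 85.8 and 150.7 on the 3 wild-type migratory arrays. Signals were 45.0, 45.2 and 22.3 in wild-type nonmigratory cells, 60.8, 28.5 and 41.2 in mutant migratory cells and 42.5, 32.7 and 47.7 in mutant nonmigratory cells. The 3 wild-type migratory arrays were thus the highest of the 12, and the 3 other groups overlapped one another near background. Above the background percentile of their own array lay 3 of 3 wild-type migratory arrays, 1 of 3 wild-type nonmigratory arrays and 2 of 3 in each mutant group.

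Between wild-type fractions dpp rose at least 2.69-fold, a bound because the nonmigratory mean of 37.5 (SD 13.2, n = 3) did not exceed background, against 121 (SD 32.7, n = 3) in migratory cells. The fitted log2 difference was 1.52 (SE 0.363, limma adjusted p = 0.0161). This call was lost when replicate 1 of the wild-type migratory arrays was left out (log2 1.48, limma adjusted p = 0.0656), when replicate 3 of that group was (log2 1.36, adjusted p = 0.0830) and when replicate 3 of the wild-type nonmigratory arrays was (log2 1.25, adjusted p = 0.0594). In these bulk fractions, fewer cells that transcribe a gene and less RNA per cell cannot be told apart.

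In the mutant the dpp means were 43.5 (SD 16.3, n = 3) in migratory and 41.0 (SD 7.62, n = 3) in nonmigratory cells, a log2 difference of 0.04 (SE 0.363, limma adjusted p = 0.971). Mutant migratory cells lay 1.35 log2 units below wild-type migratory cells (log2 -1.35, SE 0.363), and the 3 arrays of each group did not overlap. This difference was not called, with a limma adjusted p = 0.0794 over all probe sets. With arrays weighted by their quality it was called (log2 -1.42, limma adjusted p = 0.0479), and in the other 24 alternatives it was not. With the GAPDH 5′ to 3′ ratio as a covariate it was log2 -1.29 (limma adjusted p = 0.244), and with the mean of the gut enzyme genes, which were higher in the mutant, log2 -1.07 (adjusted p = 0.834). With the gut mean 5 of 9753 probe sets were called in this comparison, against 177 without a covariate. That mean log2 signal was 7.14 to 8.31 in wild-type and 9.80 to 10.1 in mutant migratory cells. It and the genotype cannot be told apart there. In nonmigratory cells dpp differed between genotypes by log2 0.14 (SE 0.363, limma adjusted p = 0.947).

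Whether the fraction difference of dpp itself changed with genotype was tested by the interaction, mutant minus wild type. It was -1.49 (SE 0.513), with an unadjusted p of 0.0110 and a limma adjusted p of 0.659, so a change with genotype was not called. In that test 0 of 9753 probe sets were called (0.0%) and 660 had an unadjusted p under 0.05, which is 6.77%.

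The second ligand gene, gbb, had signals of 92.2, 196.6 and 120.2 in wild-type migratory cells and 131.6, 112.3 and 78.9 in wild-type nonmigratory cells. Mutant signals were 60.1, 138.1 and 117.6 in migratory and 41.6, 111.5 and 105.3 in nonmigratory cells. All 4 groups overlapped. The log2 difference between fractions was 0.28 (limma adjusted p = 0.763) in wild type and 0.30 (adjusted p = 0.721) in the mutant, each with SE 0.391. The replicates of gbb were further apart than those of most probe sets: its within-group SD on the log2 scale was 0.56, against a median of 0.37 over all probe sets tested.

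**Figure D1:**
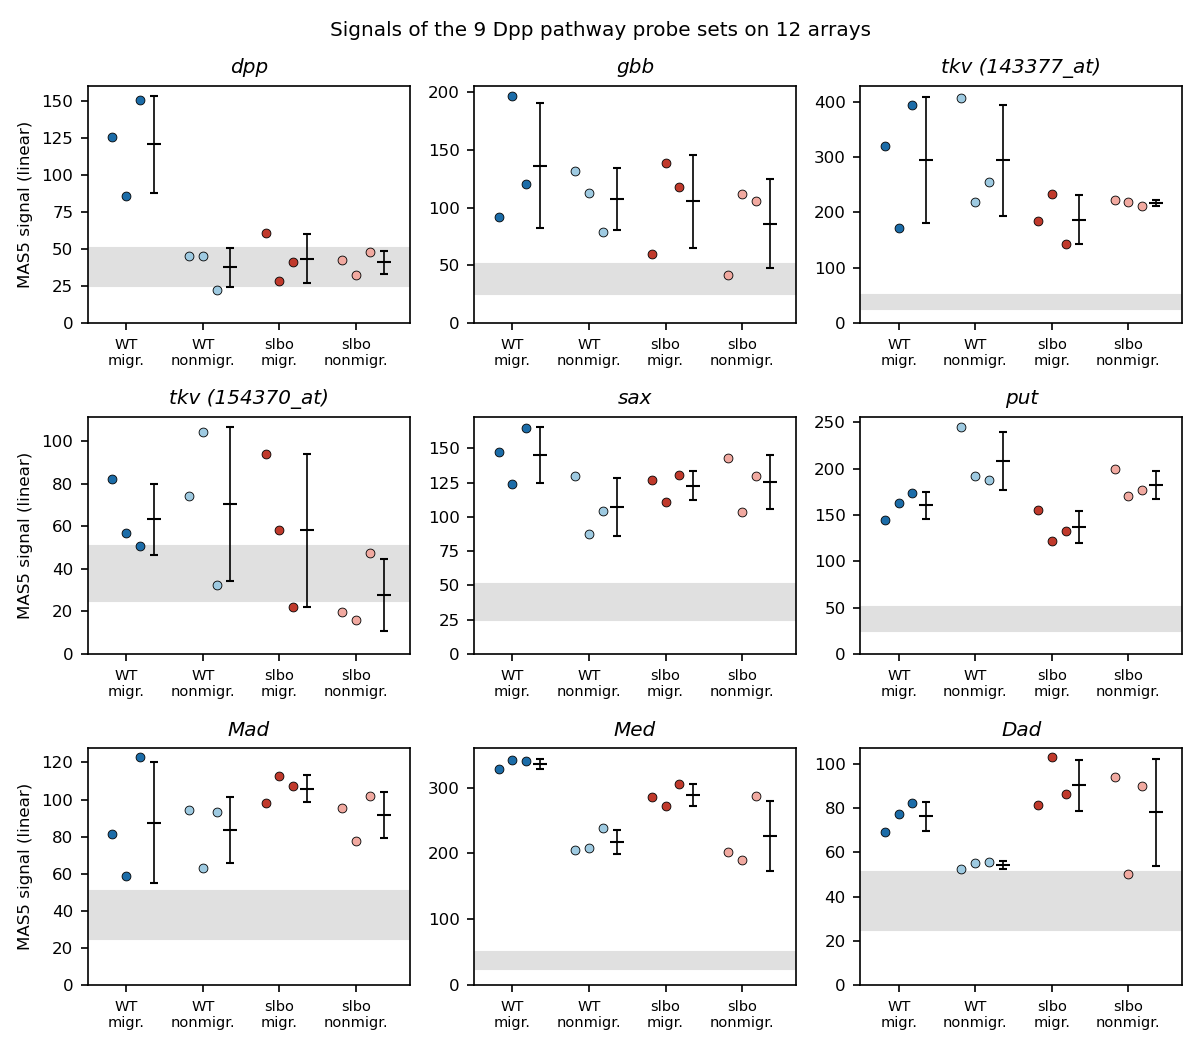
Linear MAS5 signal (vertical axis, one scale per panel, starting at 0) of the 9 Dpp pathway probe sets on 12 arrays. Points are single arrays in replicate order, horizontal bars with whiskers are group means and SD of 3 arrays, and the grey band spans the arrays' background percentile, 24.9 to 50.9. For dpp the 3 wild-type migratory arrays lie between 85.8 and 150.7, above the other 9 arrays, and for Med they lie between 327.7 and 341.7.

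Of the receptors, the type I receptor gene tkv was measured by a brighter and a dimmer probe set. The brighter one, 143377_at, gave 320.1, 171.2 and 394.9 in wild-type migratory and 407.7, 219.2 and 255.0 in wild-type nonmigratory cells, so the fractions overlapped widely (log2 -0.02, SE 0.286). In the mutant it gave 185.0, 232.4 and 143.7 in migratory and 221.5, 219.4 and 211.0 in nonmigratory cells. Wild-type arrays reached higher signals than mutant arrays, but the groups overlapped, and mutant against wild-type migratory cells gave log2 -0.58 (SE 0.286, limma adjusted p = 0.427).

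The dimmer tkv probe set, 154370_at, lay between 50.8 and 82.2 in wild-type migratory cells, between 32.3 and 104.3 in wild-type nonmigratory cells and between 22.0 and 94.0 in mutant migratory cells. On the mutant nonmigratory arrays it gave 19.6, 16.1 and 47.3, and 0 of these 3 arrays exceeded its own background percentile. No comparison of 2 groups was called for it. Mutant nonmigratory cells had a mean of 27.7, at background, against 70.3 in wild-type nonmigratory cells. These groups overlapped, and the log2 difference of -1.12 (SE 0.503) was not called (limma adjusted p = 0.518). Across the 12 arrays the log2 signals of the tkv probe sets had a Pearson correlation of 0.29, so one cannot stand in for the other.

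The other type I receptor gene, sax, gave 147.0, 124.0 and 164.8 in wild-type migratory cells against 129.4, 87.3 and 104.4 in wild-type nonmigratory cells. In the mutant it gave 126.7, 110.6 and 130.6 against 142.9, 103.6 and 129.5. The fractions overlapped in both genotypes, with log2 differences of 0.42 (SE 0.222, limma adjusted p = 0.305) in wild type and -0.02 in the mutant.

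The type II receptor gene put lay lower in the migratory fraction of both genotypes without being called. It gave 144.2, 162.9 and 173.7 in wild-type migratory cells and 244.6, 192.1 and 187.7 in wild-type nonmigratory cells. In the mutant the signals were 155.5, 122.0 and 133.1 in migratory and 199.2, 170.2 and 176.7 in nonmigratory cells. Within each genotype no migratory array reached a nonmigratory array, a pattern that 6.58% of the 9753 probe sets showed. The log2 differences were -0.36 (SE 0.186, limma adjusted p = 0.303) in wild type and -0.40 (adjusted p = 0.231) in the mutant, and averaged over genotypes -0.38 (SE 0.132, adjusted p = 0.0648). The spread of put between replicates was small, at the 9.38th percentile of within-group SD among the probe sets tested.

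Of the Smads, the receptor-regulated Mad was not called in any comparison of 2 groups, and the groups overlapped in all 4 of them. Its signals ran from 58.7 to 122.9 in wild-type migratory, from 62.9 to 94.5 in wild-type nonmigratory, from 97.9 to 112.7 in mutant migratory and from 77.7 to 102.0 in mutant nonmigratory cells. The fraction differences were log2 0.03 in wild type and 0.20 in the mutant, and the genotype difference in migratory cells was log2 0.31 (limma adjusted p = 0.736).

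The common Smad gene Med had signals of 327.7, 341.7 and 340.5 in wild-type migratory cells and 205.3, 208.8 and 238.7 in wild-type nonmigratory cells. These groups did not overlap, and Med rose 1.53-fold (log2 0.62, SE 0.170, limma adjusted p = 0.0358). In mutant migratory cells the signals were 286.4, 272.7 and 306.2, below all 3 wild-type migratory arrays, but the genotype difference of log2 -0.22 was not called (limma adjusted p = 0.675). Mutant nonmigratory cells gave 201.7, 189.8 and 287.7, and replicate 3 alone reached into the migratory range (log2 0.36, SE 0.170, limma adjusted p = 0.233 between the mutant fractions). The interaction for Med was log2 -0.25 (limma adjusted p = 0.888), so the fraction difference was not shown to depend on genotype. Averaged over genotypes, Med was 1.40-fold higher in migratory cells (log2 0.49, SE 0.120, limma adjusted p = 0.0108).

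The Med call in wild type was sensitive to single arrays. It was lost without any 1 of the 3 wild-type migratory arrays, or without wild-type nonmigratory replicate 1 or 2. In these fits the log2 difference itself was 0.58 to 0.63. Over all alternatives it ran from 0.11, with the GAPDH 5′ to 3′ ratio as a covariate (limma adjusted p = 0.950), to 0.68.

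The inhibitory Smad gene Dad gave 69.2, 77.3 and 82.1 in wild-type migratory cells, all above the 52.3, 55.0 and 55.6 of wild-type nonmigratory cells. In the mutant it gave 81.3, 103.2 and 86.4 in migratory cells and 94.1, 50.0 and 89.8 in nonmigratory cells, where replicate 2 alone was as low as the wild-type nonmigratory arrays. Differences between fractions were log2 0.44 (SE 0.278, limma adjusted p = 0.432) in wild type and 0.23 (adjusted p = 0.693) in the mutant, and neither was called. The genotypes differed by log2 0.22 (limma adjusted p = 0.825) in migratory and 0.42 (adjusted p = 0.726) in nonmigratory cells.

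**Figure D2:**
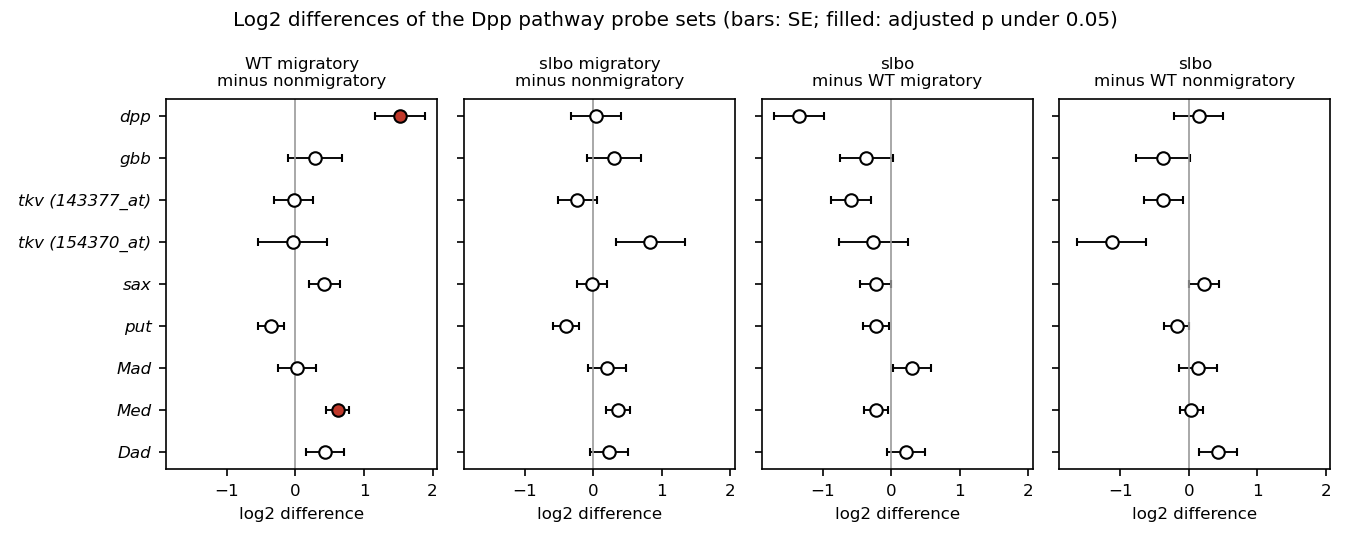
Log2 differences (horizontal axis) of the 9 probe sets in 4 comparisons of 2 groups of 3 arrays. Points are limma estimates, whiskers are SE, and filled points have an adjusted p under 0.05: dpp at 1.52 and Med at 0.62 between wild-type fractions, and none in the other 3 panels.

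Counted over the pathway, 2 of 9 probe sets were called between wild-type fractions, both higher, where 8.42% of all probe sets were called and 3.95% were called higher. The median log2 difference of the 9 was 0.28, against 0.01 over all probe sets. Migratory and nonmigratory arrays did not overlap for 3 probe sets that were higher (dpp, Med and Dad) and 1 that was lower (put), where 24.3% of all probe sets did not overlap.

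Between the mutant fractions 0 of 9 were called, where 8.29% of all probe sets were. The median was 0.20 against 0.03 over all probe sets, and put alone did not overlap, where 28.8% of all probe sets did not. Averaged over genotypes, dpp (log2 0.78, SE 0.256, limma adjusted p = 0.0497, at least 1.65-fold) and Med were called, where 16.7% of all probe sets were called. This average of dpp lost its call in 19 of 25 alternatives, and its parts were 1.52 in wild type and 0.04 in the mutant.

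Between genotypes in migratory cells 0 of 9 were called, where 1.81% of all probe sets were, and 7 of 9 differences were below 0 with a median of -0.23, against 0.01 over all probe sets. The arrays of dpp and Med did not overlap, both lower in the mutant, where 17.8% of all probe sets did not overlap. In nonmigratory cells 0 of 9 were called, where 0.656% of all probe sets were, 0 of 9 were without overlap, and the median was 0.03. Averaged over fractions, 0 of 9 were called between genotypes, where 3.25% of all probe sets were.

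The order of the group means on the log2 scale put wild-type migratory cells first for dpp, gbb, sax and Med, 4 of the 9 probe sets. For dpp and Med the next group was mutant migratory cells, which did not overlap with the first. All other neighbours in the order of groups overlapped, for dpp and Med as for the other 7 probe sets. In dpp the 3 lower groups had mean log2 signals of 5.62, 5.59 and 5.44, against 6.97 in wild-type migratory cells.

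Over the 12 arrays the log2 signal of dpp had a Pearson correlation of 0.69 with sax and 0.66 with Med. It was 0.35 and 0.40 with the tkv probe sets, 0.18 with Dad, 0.17 with gbb, -0.04 with Mad and -0.08 with put. The arrays fall into the 4 groups and share their scaling, so these values describe the same contrast of groups and carry no test.

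Outside the pathway, the named genes whose log2 signals were most like those of dpp over the 12 arrays were Gp93 (Pearson r 0.91), which encodes a chaperone of the endoplasmic reticulum, alphaCOP (0.89), which encodes a subunit of the coat of Golgi vesicles, Vajk3 (0.89), geko (0.88) and nemy (0.88). Gp93 lay between 4441.1 and 6017.9 in wild-type migratory cells and between 2961.6 and 3509.1 on the other 9 arrays. The signal of geko lay between 176.8 and 217.1 in wild-type migratory cells and between 16.6 and 94.5 on the other arrays. Vajk3 lay between 44.5 and 118.8 in wild-type migratory cells and between 1.9 and 26.2, under background, on the other 9 arrays. In each of these 5 genes the 3 wild-type migratory arrays were above the other 9, as for dpp. The genes were picked for their likeness to dpp on these same arrays, so the shared pattern carries no test.

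**Figure D3:**
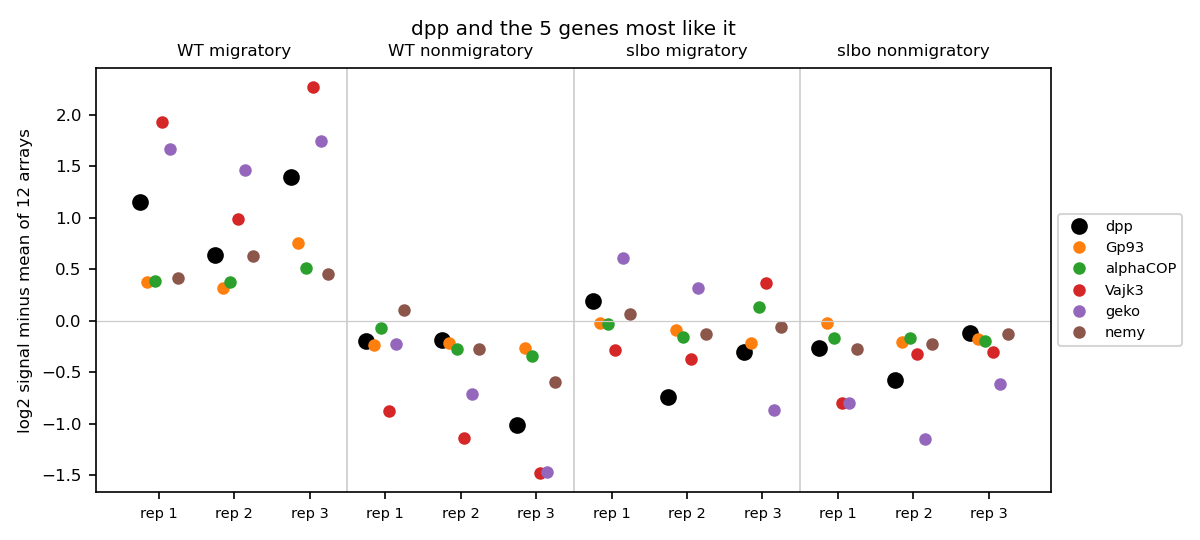
Log2 signal minus the probe set's mean over 12 arrays (vertical axis) of dpp and the 5 named genes with the highest Pearson correlation with it, by array in 4 groups of 3. Each point is 1 array; the 3 wild-type migratory arrays of all 6 genes lie above 0 and above the other 9 arrays of the same gene.

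The wider pathway was described by 39 further genes in 5 lists: other ligands of the TGF-beta family, other receptors and Smads, extracellular regulators, intracellular regulators and genes known to respond to Dpp. Of these, 32 genes had 37 probe sets and 24 probe sets passed the filter on low signal. Between wild-type fractions 2 of 24 were called higher and 1 lower (median log2 -0.07, against 0.01 over all probe sets), where 8.42% of all probe sets were called. Between mutant fractions 1 was higher and 1 lower (median -0.05, against 0.03), where 8.29% of all probe sets were called. In both comparisons of genotypes and in the interaction 0 of 24 were called. Of all probe sets 1.81% were called between genotypes in migratory cells, 0.656% in nonmigratory cells and 0.0% in the interaction. Averaged over genotypes 2 were higher and 2 lower (median 0.03, as over all probe sets), where 16.7% of all probe sets were called. These counts are near the shares over all probe sets.

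Of the ligand list, 3 of 4 probe sets were tested and daw, which encodes an Activin-like ligand that signals through the receptor Babo, was called. Its signals were 572.1, 537.8 and 761.8 in wild-type migratory cells against 228.3, 205.1 and 293.5 in nonmigratory cells. In the mutant they were 611.3, 710.4 and 590.1 against 327.8, 490.3 and 336.2. The fractions did not overlap in either genotype, where 24.3% of all probe sets in wild type and 28.8% in the mutant did not overlap. In migratory cells daw was higher by log2 1.34 (SE 0.191, limma adjusted p = 0.000563) in wild type and by log2 0.74 (SE 0.191, adjusted p = 0.0276) in the mutant. The wild-type call of daw was lost with the GAPDH 5′ to 3′ ratio as a covariate (limma adjusted p = 0.225). The mutant call was lost in 9 of 26 alternatives, among them leaving out any mutant array other than nonmigratory replicate 2. With the mean of the gut enzyme genes as a covariate the difference was log2 0.20 (limma adjusted p = 0.801), and 0.472% of all probe sets were called between the mutant fractions.

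Of the other receptors and Smads 3 of 3 probe sets were tested, and wit, which encodes a BMP type II receptor best known at the neuromuscular junction, was called in wild type. It gave 131.9, 137.9 and 122.8 in wild-type migratory and 34.0, 79.6 and 20.7 in nonmigratory cells, without overlap (log2 1.57, SE 0.359, limma adjusted p = 0.0132, and 0.225 with the GAPDH ratio as a covariate). In the mutant the signals were 110.1, 85.1 and 74.0 against 67.5, 90.3 and 58.9, which overlapped (log2 0.29, limma adjusted p = 0.707). The interaction of wit was log2 -1.28 with an unadjusted p of 0.0238 and a limma adjusted p of 0.659, so that wit, like dpp, was not shown to differ in its fraction difference between genotypes. The type I receptor gene babo and the Smad gene Smox were not called.

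Of the extracellular regulators 9 of 14 probe sets were tested, and 1 of the 2 probe sets of Fs, which encodes the ligand-binding protein follistatin, was lower in migratory cells of both genotypes. This probe set gave 112.4, 77.7 and 88.0 against 140.4, 183.6 and 174.9 in wild type and 77.4, 77.8 and 113.6 against 165.9, 186.5 and 136.1 in the mutant. The log2 differences were -0.80 (limma adjusted p = 0.0482) and -0.82 (adjusted p = 0.0438), near the threshold, and the calls were lost in 18 and 15 of 26 alternatives. The other Fs probe set gave -0.65 and -0.32 and was not called.

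Of the genes known to respond to Dpp only 4 of 10 probe sets passed the filter, and bi, salm, vg, bam and pnr were at or under background in all 4 groups. Averaged over genotypes bun, which Dpp is known to repress in anterior follicle cells, was lower in migratory cells (log2 -0.69, SE 0.168, limma adjusted p = 0.00984). In that average 16.7% of all probe sets were called. The call of bun was lost with the GAPDH ratio (log2 -1.20, limma adjusted p = 0.123) or the gut gene mean (log2 -0.64, adjusted p = 0.187) as a covariate. With these covariates 0.451% and 5.14% of all probe sets were called. Its signals were 164.0, 158.3 and 173.3 against 271.0, 282.6 and 291.8 in wild type and 251.2, 110.9 and 235.9 against 299.7, 296.7 and 293.0 in the mutant. Migratory cells were lower without overlap in both genotypes, as for 6.58% of all probe sets. Taken singly the genotypes gave log2 -0.74 (limma adjusted p = 0.0682) and -0.64 (adjusted p = 0.120). The other 3 tested probe sets, of salr, Ance and tup, were not called in any comparison. Their log2 differences averaged over genotypes were above 0, up to 1.01 for Ance. Of the intracellular regulators 5 of 6 probe sets were tested and none was called by limma in any comparison; the lowest unadjusted p values for the average over genotypes were 0.0171 for Sara (log2 0.43) and 0.0337 for shn (log2 -0.31).

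**Figure D4:**
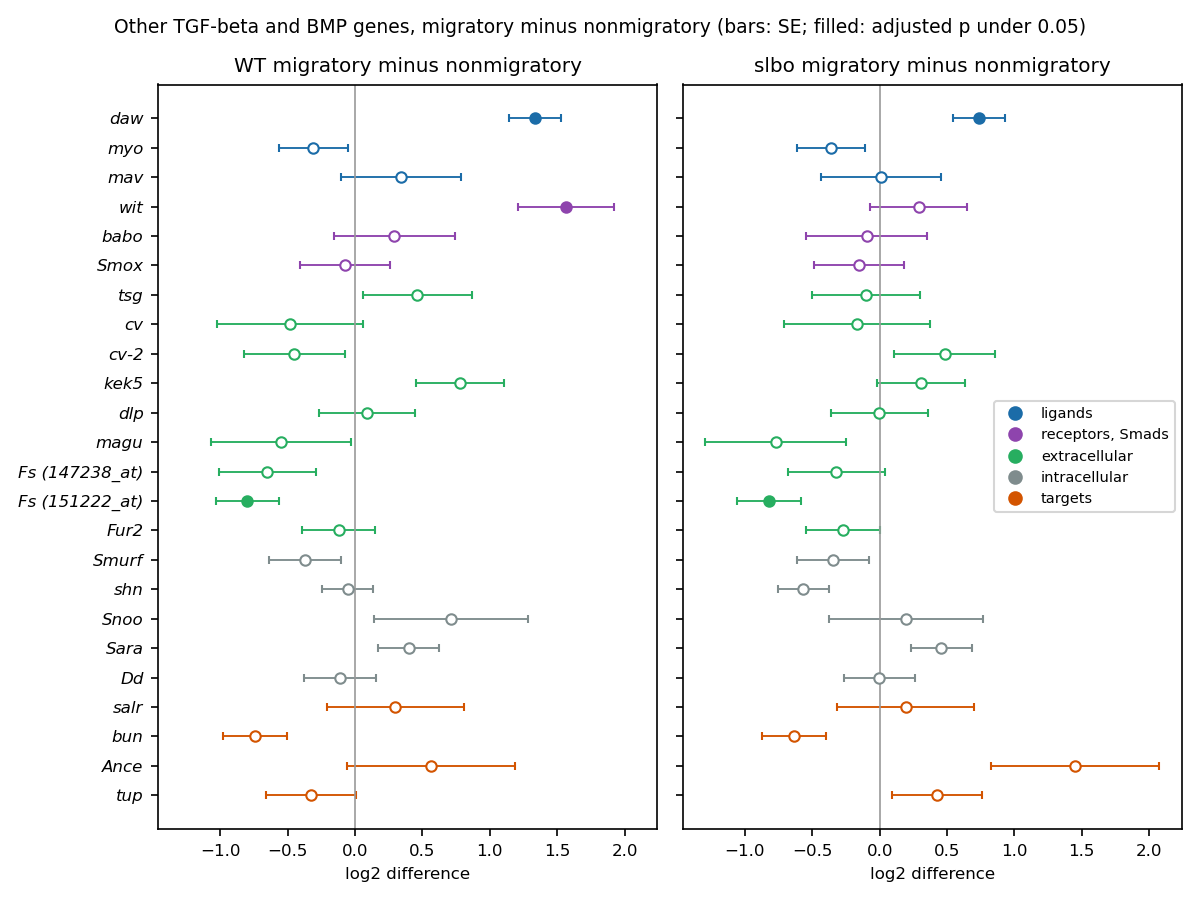
Log2 difference between migratory and nonmigratory cells (horizontal axis) of 24 tested probe sets of other TGF-beta and BMP genes, in wild type (left) and in the slbo mutant (right). Points are limma estimates from 3 arrays a group, whiskers are SE, colours are the 5 lists, and filled points have an adjusted p under 0.05: daw, wit and 1 probe set of Fs in wild type, daw and the same Fs probe set in the mutant.

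Several measures of the arrays moved with the groups in which dpp and Med differed. The ratio of 5′ to 3′ GAPDH signal, a sign of RNA integrity and labelling, was 0.0783 to 0.0947 on the wild-type migratory arrays and 0.158 to 0.200 on the wild-type nonmigratory arrays, without overlap, and 0.0932 to 0.150 and 0.134 to 0.184 in the mutant. With this ratio as a covariate the wild-type fraction difference was log2 1.37 for dpp (limma adjusted p = 0.570) and 0.11 for Med (adjusted p = 0.950), and 7 of 9753 probe sets were called in all. The ratio and the fraction cannot be told apart in wild type.

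Border cell markers, with 6 of 6 genes measured, summed to 1038.9 to 1140.6 in wild-type migratory cells and 562.4 to 772.2 in wild-type nonmigratory cells. In the mutant they summed to 554.2 to 751.8 in migratory and 597.7 to 712.6 in nonmigratory cells. The sum thus stood highest on the same 3 arrays as dpp. Taken singly, slbo and sn did so, and shg, Fak, jing and btl did not. The signal of shg lay between 144.7 and 231.1 in wild-type migratory and between 181.0 and 204.3 in mutant nonmigratory cells. Of this list slbo had a mean of 213 in wild-type migratory and 43.6 in mutant migratory cells (log2 -2.09, limma adjusted p = 0.0134), sn was not called between these groups (log2 -0.73, adjusted p = 0.133), and Fak lay at 72.7 and 81.1. The gene jing had 1 probe set at 20.9 and 41.3 and another at 92.2 and 53.2. The signal of btl exceeded background on 1 of 3 wild-type migratory arrays and on 0 of 3 in each other group. Of the stretched and centripetal cell markers, 3 of 4 genes summed to 617.2 to 876.5, 479.3 to 642.9, 610.4 to 720.5 and 580.4 to 649.3 in the same order of groups. Among these tsl, which centripetal and border cells are known to express, was called higher in migratory cells of wild type (log2 1.39, limma adjusted p = 0.0129). It was also called higher in those of the mutant (at least 3.03-fold, limma adjusted p = 0.00127), where dpp was not. The signal of tsl lay between 177.6 and 227.7 in wild-type migratory and between 107.9 and 128.2 in mutant migratory cells. That genotype difference was not called (log2 -0.76). In mutant nonmigratory cells the mean of tsl was 23.8, under background. Averaged over fractions tsl was called lower in the mutant (log2 -1.09), where 3.25% of all probe sets were called. The genes eya and peb were not called between the fractions of either genotype.

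Gut enzyme genes, with 17 of 18 measured, summed to 3607.7 to 10522.3, 3336.3 to 8271.1, 28085.2 to 38626.6 and 14522.2 to 19673.4 in that order, and germline genes, with 8 of 9 measured, to 452.3 to 1061.1, 352.9 to 697.8, 1138.6 to 1505.9 and 822.0 to 1078.5. Both lists were thus higher in both mutant groups than in the wild-type groups of the same fraction. Muscle genes, with 6 of 10 measured, summed to 2710.5 to 4828.8, 1487.9 to 3699.9, 3828.0 to 5036.7 and 2201.8 to 3861.6, and blood and fat body genes, with 6 of 6, to 732.2 to 957.6, 489.5 to 837.1, 1098.3 to 1323.8 and 782.5 to 895.5. Yolk and vitelline membrane genes of follicle cells, with 7 of 8 measured, summed to 133141.9 to 167577.3, 157217.7 to 163426.3, 125328.6 to 153755.6 and 119839.3 to 132384.2. Of the polar cell markers 2 of 3 genes had a probe set and upd1 was at background in all groups. With the mean of the gut list as a covariate the wild-type fraction difference of dpp was log2 1.58 (limma adjusted p = 0.0320) and that of Med 0.60 (adjusted p = 0.0799). The part of the other cell types in these differences was not tested.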

How the data were processed

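The deposited values were the signal intensity of each probe set, made with MAS5 (version not given in the sources used here) per the submitters' processing notes, and were used as the authors deposited them. Their scaling left a trimmed mean of 150.0 on each of the 12 arrays. Probe sets were named from the platform annotation: 12442 had 1 gene, 327 several and 1197 none, besides 44 controls. Signals were transformed as log2(signal + 7.50), the constant being 5% of the trimmed mean, and probe sets above the 40th percentile on at least 3 arrays were kept. A model of 4 group means was fitted to 9753 probe sets with limma 3.58.1 (R 4.3.3), a variance trend and 8 residual degrees of freedom, and p-values were adjusted by the Benjamini-Hochberg method over all of them. The fit was per probe set, since each probe set of a listed gene was of interest. The number of arrays limits the precision. Groups came from the labels' titles, sources and genotypes. The genes and lists were chosen with earlier results of these data known. From each wider list up to 4 called probe sets with the lowest p were named, or 2 given as values where none was called, and the likeness to dpp was ranked over tested genes that have a name and not just a CG or CR number. Where a group's mean did not exceed background, the fold is a bound against the higher of signal and background on each array, on log2 signals without the constant. The limma fit was tested on simulated signals with independent noise, which lacked the differences between arrays in GAPDH ratio and gut genes. Tables and figures were made in Python 3.11.15 (pandas 2.3.3, numpy 2.4.6, matplotlib 3.10.9). No sequences were used here.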

Additional observations from a re-analysis of the deposited data

How the results depend on the processing

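Between wild-type fractions the 2 calls became 1, dpp alone, with quantile normalization, without a variance trend, in a fit of only the 2 groups compared or with the mean of the gut list as a covariate, and 0 with the GAPDH 5′ to 3′ ratio as a covariate. Leaving out 1 array at a time gave 0 to 2 calls. Over all probe sets that comparison had 821 calls, 473 without a variance trend, 513 in the fit of 2 groups, 7 with the GAPDH ratio and 455 to 973 when 1 array was left out. Averaged over genotypes the 2 calls became 1, Med, with quantile normalization, with arrays centred on their median, with no filter and with an added constant of 1%, and 0 with either covariate. With a filter at the 60th percentile they were Med and put. Leaving out 1 array gave 1 to 2. Between genotypes in migratory cells 0 calls became 1, dpp, with array weights. The other comparisons had 0 calls in every alternative run, and no called difference of a Dpp pathway or wider pathway gene changed sign (slbo and tsl were not recomputed). Over all probe sets tested, deviations of arrays with the same replicate number correlated between -0.0761 and 0.0775. This does not exclude pairing in some genes. The gut list mean, in replicate order, was 7.85, 7.14 and 8.31 in wild-type migratory and 7.30, 6.79 and 7.93 in wild-type nonmigratory cells. The fractions thus shared their order in wild type, but not in the mutant. Whether arrays with the same number came from a shared preparation was not tested. A replicate block, over all groups or within genotype, left 2 calls between wild-type fractions and 1, Med, in the average over genotypes.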
